A study of Rattus norvegicus with 12 samples.

Results

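Solute carriers are membrane proteins that move sugars, ions, metals, vitamins, nucleosides, lipids and metabolites across the plasma membrane and the membranes of organelles. The carriers described here are those of the rat array outside the families Slc1, Slc3, Slc6, Slc7, Slc36 and Slc38, which bring amino acids into cells. They were selected on their signal. A gene was taken when a probe set with 1 annotated symbol of the Slc form reached 150 on 3 or more of the 12 arrays, and its probe set of highest mean signal stood for it. This rule kept 127 of the 188 genes of these families on the array. Across the whole series, 7455 genes met the same signal rule, among them 21 genes of the amino acid families. At the edge of the rule, the third highest signal was 154.7 for Slc35f6 inside it and 144.6 for Slc25a48 outside it. The symbols set the list, so it still holds carriers of amino acids within cells. Among them are Slc25a12 and Slc25a13 (mitochondrial carriers of aspartate and glutamate), Slc25a15 (the mitochondrial ornithine carrier) and Slc66a1 (a lysosomal exporter of cationic amino acids). It also holds Slc4a1ap, an adaptor protein and not a carrier.

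The normal cells were WB-F344, a diploid epithelial line started from the liver of an adult Fischer-344 rat, a male. The tumor cells were GP7TB, obtained from clonal subpopulations of the same line after repeated brief exposure to the mutagen N-methyl-N-Nitro-N-nitrosoguanidine, so that each cell type is represented by a single line. Both were held for 18 hours in a custom Chee's medium with 5% fetal bovine serum, either with arginine at 0.168 g/l (arginine-sufficient) or without it (arginine-deficient). Each of the 4 groups had 3 arrays from 3 experiments, and every arginine-deficient culture had an arginine-sufficient partner. Of 7 hepatocyte markers on the array, 0 reached a signal of 150 in 3 normal arrays and 3 did in tumor arrays (Alb, Ttr and Cyp2e1), so that neither line carried a strong hepatocyte signature. The epithelial keratin Krt8 was high in both, whereas Krt18, Krt19 and Epcam were below 150 in all 12 arrays. Of the leukocyte markers, Ptprc was below 150 in all 12 arrays and Cd14 above it in all 12.

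The values were Microarray Suite signals on a linear scale, with array medians of 173 to 226. Differences below are log2 changes from limma with their standard error (SE, n = 3 arrays per group), and a gene passed when its adjusted p was under 0.05 over the 9745 probe sets tested. Of the 127 carriers, 119 were tested and 8 had signals too low in too many arrays. The 79 carriers at 150 or more in all 12 arrays hold most of the list, while 9 reached 150 in normal arrays alone and 8 in tumor arrays alone. Those 17 entered through the cell type in which they were high, which favours a difference between the lines, so counts of differing carriers are a description of the list. Normal arrays were scanned on 3 days and tumor arrays on another, with separate chip lots. Cell type, scan day and lot therefore cannot be told apart in any tumor versus normal difference. Some arginine pairs were split as well. The partners of normal experiment 2 differed in scan day and chip lot, and those of tumor experiments 1 and 2 in chip lot. Within those pairs arginine cannot be told apart from them. In RNA from whole cultures, fewer cells expressing a gene and less RNA per cell cannot be told apart either.

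Arginine is taken up by amino acid carriers, and its shortage is sensed through pathways that stop translation and raise amino acid uptake and synthesis genes. The first comparison asked whether carriers outside the amino acid uptake families moved as well. In normal cells 0 of 119 passed, and in tumor cells 2 of 119 passed (1.68%), both lower without arginine. These were Slc39a10, a plasma membrane zinc importer, and Slc25a12, the mitochondrial carrier that exchanges aspartate for glutamate in the malate-aspartate shuttle. Over all probe sets tested, 0.133% were higher and 0.0308% lower without arginine in normal cells. In tumor cells 0.965% were higher and 0.944% lower, so that the share of carriers that passed was near that over all probe sets. The median change of the tested carriers was -0.10 in normal cells and -0.01 in tumor cells, beside -0.04 and -0.05 over all probe sets tested. At an unadjusted p under 0.05 there were 6 carriers in normal cells and 12 in tumor cells. Over all 9745 probe sets tested there were 920 and 1491. A linear model without moderation left 0 carriers in either cell type, beside 0 of all probe sets in normal and 29 in tumor cells. Under a rule of a 2-fold ratio in 6 of 9 comparisons, 1 carrier changed in normal cells (Slc22a15, lower) and 3 in tumor cells (Slc25a33 higher, Slc39a10 and the untested Slc13a4 lower), beside 1.13% and 2.47% of all probe sets tested.

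Slc39a10 gave signals of 564, 502 and 395 in the arginine-sufficient tumor cultures of experiments 1, 2 and 3. Without arginine the signals were 231, 227 and 245. The groups did not overlap, and all 3 arginine-deficient cultures lay within a narrow band below the lowest arginine-sufficient one. The change was -1.04 ± 0.21 (adjusted p = 0.0231). In normal cells the signals were 627, 527 and 478 with arginine and 266, 389 and 273 without, again with no overlap. That change of -0.83 ± 0.21 did not pass (adjusted p = 0.169), but it did with the experiment as a block (adjusted p = 0.0475), and no difference between the responses of the cell types passed (-0.21 ± 0.29, adjusted p = 0.974). Within the normal arrays of a single scan day the changes were -0.96 and -0.81, and within the tumor arrays of a single chip lot they were -1.0 and -1.12.

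Slc25a12 gave signals of 693, 546 and 692 in arginine-sufficient tumor cultures. Without arginine they were 344.2, 366.5 and 419.4, below every arginine-sufficient value. The change was -0.77 ± 0.17 (adjusted p = 0.0382). In normal cells the signals were 654, 530 and 625 with arginine and 422, 458 and 391 without, a change of -0.51 ± 0.17 that did not pass (adjusted p = 0.356). The normal arrays of a single scan day gave -0.57 and -0.68, and the tumor arrays of a single chip lot gave -0.82 and -0.67.

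Both calls stood close to the threshold. Slc39a10 no longer passed without the arginine-sufficient tumor arrays of experiments 1 or 2, or without any of the 3 arginine-deficient tumor arrays (-0.92 to -1.07, adjusted p = 0.0519 to 0.112), and it still passed without that of experiment 3. Slc25a12 no longer passed without any single one of the 6 tumor arrays or without the arginine-sufficient normal array of experiment 3 (-0.71 to -0.88, adjusted p = 0.0502 to 0.149), and it also missed the threshold after quantile normalization (-0.68, adjusted p = 0.0815) or median centring (-0.70, adjusted p = 0.0695). The direction was the same in every one of these fits.

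**Figure D1:**
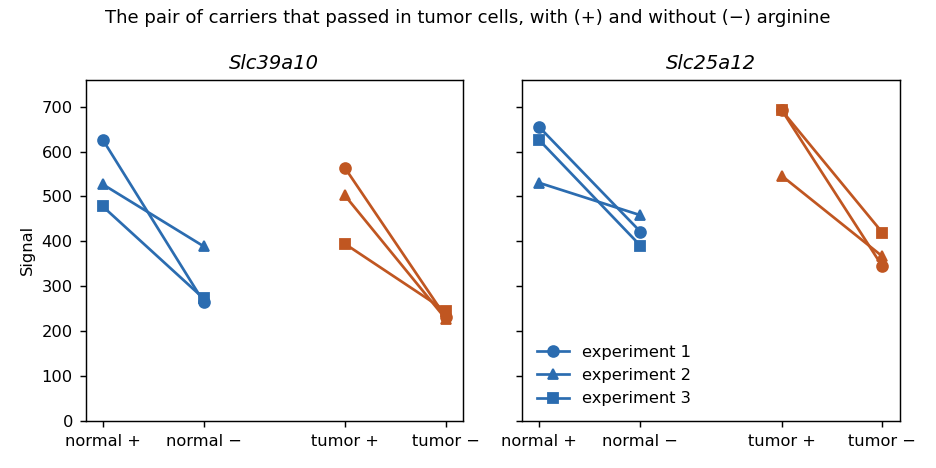
Signal (linear axis from 0) of Slc39a10 and Slc25a12 on each array, with lines joining the arginine-sufficient (+) and arginine-deficient (−) cultures of an experiment and symbols marking experiments 1 to 3. Both genes were lower without arginine in all 3 experiments of both cell types, and the 3 arginine-deficient tumor signals of Slc39a10 lay between 227 and 245.

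The promoters of these carriers are shown because these carriers were the ones that passed on arginine withdrawal without a block. The sequences are those of RefSeq on the build GRCr8, from 250 bases before the start of the gene to 50 after it, in lower case and 5′ to 3′ along the strand of the gene. Slc39a10 lies on the plus strand at chr9:62405183-62405482 and Slc25a12 on the minus strand at chr3:76599487-76599786. Capitals mark the pattern TGCNCNC, a loose form of the metal response core that takes any base at each N. It was searched on both strands beside the amino acid response core TGATGNAAN and the E-box CACGTG.
Slc39a10: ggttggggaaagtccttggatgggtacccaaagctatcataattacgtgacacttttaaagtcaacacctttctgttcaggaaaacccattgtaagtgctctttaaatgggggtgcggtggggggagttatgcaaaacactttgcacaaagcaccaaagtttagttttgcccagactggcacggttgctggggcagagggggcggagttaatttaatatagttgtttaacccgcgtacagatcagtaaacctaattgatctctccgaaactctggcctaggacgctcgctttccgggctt
Slc25a12: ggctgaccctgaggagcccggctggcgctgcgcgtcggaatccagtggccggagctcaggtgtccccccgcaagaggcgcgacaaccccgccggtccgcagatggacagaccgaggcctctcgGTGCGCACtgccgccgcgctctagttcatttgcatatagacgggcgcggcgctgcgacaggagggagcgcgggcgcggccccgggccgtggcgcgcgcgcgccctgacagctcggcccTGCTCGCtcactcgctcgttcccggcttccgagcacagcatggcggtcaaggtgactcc
The window of Slc39a10 held 0 matches to any of the 3 motifs. That of Slc25a12 held 3 matches to the loose metal response pattern, of which a pair overlaps on opposite strands, and 0 to the others. The loose metal response pattern was found in 49.6% of all 33469 promoters of this length, the E-box in 6.42% and the amino acid response core in 3.97%. Of 105 carriers with a promoter in the table, 66 held the loose metal response pattern, 14 the E-box and 2 the amino acid response core. These matches are letters in a window, and binding was not measured.

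Since every culture without arginine had a partner, the experiment was also taken as a block, which moved the number of carriers that passed in tumor cells from 2 to 8. Over all probe sets tested the block moved the number in tumor cells from 186 to 1069. It called 4.79% higher and 6.18% lower in tumor cells, and 1.39% higher and 1.03% lower in normal cells, where Slc39a10 was the 1 carrier that passed. In addition to Slc39a10 (adjusted p = 0.00638) and Slc25a12 (adjusted p = 0.0114), 4 carriers were higher and 2 lower. Slc25a39, which imports glutathione into mitochondria, was higher by 0.57 (adjusted p = 0.0123), with changes of 0.53, 0.63 and 0.55 in experiments 1 to 3. Its signals overlapped between the groups, from 2251 to 3709 with arginine and from 3240 to 5425 without, so that the change is seen within the pairs. Slc25a33, the mitochondrial pyrimidine nucleotide carrier, was 249, 226 and 286 with arginine and 707, 498 and 516 without. Its change of 1.17 ± 0.33 was the largest increase among the carriers in tumor cells, and it did not pass without the block (adjusted p = 0.100) but did with it (adjusted p = 0.0377). The plasma membrane zinc importer Slc39a1 was higher by 0.42 (adjusted p = 0.0452 with the block), in the direction opposite to Slc39a10, and Slc66a2 by 0.63 (adjusted p = 0.0387). Within the arrays of a single chip lot, the changes were 0.89 and -0.07 for Slc25a39 and 0.56 and 0.12 for Slc39a1.

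The sodium-potassium-chloride cotransporter Slc12a2, which sets cell volume and chloride, fell by 0.63 in tumor cells with the block (adjusted p = 0.0281). Its tumor signals were 1316, 1364 and 596 with arginine and 919, 677 and 459 without, lower in each pair. In normal cells they were 1503, 1358 and 1264 with arginine and 1699, 2195 and 2200 without, higher in each pair and with no overlap. Slc12a2 was the only 1 of the 127 carriers that was higher in all 3 normal pairs and lower in all 3 tumor pairs. The reverse was seen in 0, and neither pattern was counted over all probe sets. The difference of the responses was -1.19 ± 0.43 and did not pass (unadjusted p = 0.0157, adjusted p = 0.824, and adjusted p = 0.0795 with the block). Slc27a3, of the fatty acid carrier family, fell by 0.96 in tumor cells with the block (adjusted p = 0.0406), from 360, 531 and 511 to 138, 298 and 322.

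No difference between the arginine responses of tumor and normal cells passed for any carrier, as for all 9745 probe sets, of which 0% were higher and 0% lower. At an unadjusted p under 0.05 there were 5 carriers of 119 and 550 of all probe sets. Beside Slc12a2, the mitochondrial sodium-calcium exchanger Slc8b1 differed by 1.51 ± 0.57 (unadjusted p = 0.0199). Its normal signals were 326, 328 and 242 with arginine and 51, 199 and 194 without, while in tumor cells they were 346, 265 and 328 against 338, 395 and 395. The phosphate importer Slc20a2 differed by 0.95 ± 0.38 (unadjusted p = 0.0242), with a change of -0.48 in normal and 0.47 in tumor cells.

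Among the carriers that did not pass, the lowest changes in normal cells were those of the organic ion carrier Slc22a15 (-1.49 ± 0.38, adjusted p = 0.191), Slc8b1 (-1.24), the zinc importer Slc39a4 (-1.02), Slc37a1 (-0.88), Slc39a10 (-0.83) and Slc22a17 (-0.64). All 3 signals of Slc22a15 without arginine were under the expression threshold (the 46th percentile of the array), and with low signals raised to that threshold its change was -0.10 and that of Slc37a1 -0.23, so these sizes are uncertain. The highest were Slc25a33 (0.62), the proton-coupled folate carrier Slc46a1, which was under the threshold on all 6 normal arrays and has no measured change there, Slc12a2 (0.56), Slc25a36 (0.45), the phosphate importer Slc20a1 (0.43) and Slc25a39 (0.41). In tumor cells the lowest after Slc39a10 were the vesicular glutamate carrier Slc17a6 (-1.01 ± 0.70), the sodium-calcium exchanger Slc8a1, under the threshold on all 6 tumor arrays and so without a measured change, Slc27a3 (-0.96), Slc39a4 (-0.91) and the intracellular glucose carrier Slc2a8 (-0.81). The highest after Slc25a33 were the fructose carrier Slc2a5 (0.88 ± 0.65), Slc66a2 (0.63), Slc25a39 (0.57), the chloride-bicarbonate exchanger Slc4a1 (0.53) and Slc46a1 (0.50). Several of these rested on single cultures. The change of Slc39a4 in tumor cells came from 1 pair (-0.08 or -0.12 in the other pairs). That of Slc4a1 in tumor cells also came from 1 pair (1.52, with -0.04 and 0.11 in the others). Slc2a5 in normal cells ranged from -1.55 to 2.74 between experiments.

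**Figure D2:**
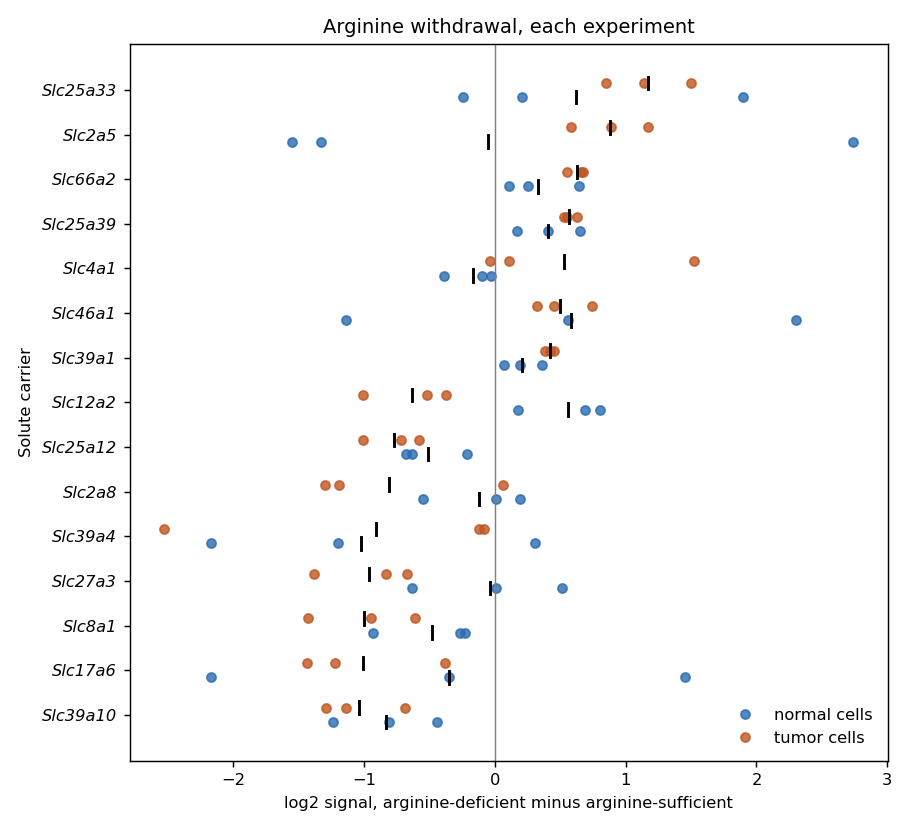
Log2 change on arginine withdrawal in each experiment (points) of normal and tumor cells, with a black bar at the group value, for the carriers with the lowest and highest changes in tumor cells and those that passed with the experiment as a block. The tumor points of Slc8a1 and the normal points of Slc17a6, Slc27a3 and Slc46a1 come from signals under the threshold. Slc39a10 and Slc25a12 were below 0 in all 6 pairs, and Slc12a2 was above 0 in the normal pairs and below 0 in the tumor pairs.

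Over all 127 carriers, 15 were lower in all 6 pairs and 7 were higher in all 6 pairs. The same counts were not made over all probe sets, so they describe the list alone. The 7 were Slc16a1, Slc20a1, Slc23a2, Slc25a39, Slc39a1, Slc49a4 and Slc66a2. None of them passed in either cell type without the block. The carrier of the urea cycle intermediate ornithine, Slc25a15, changed by -0.01 ± 0.24 in normal and 0.03 ± 0.24 in tumor cells. The main plasma membrane glucose carrier Slc2a1 changed by 0.40 ± 0.20 and 0.03 ± 0.20, and neither value passed. The ADP/ATP carriers of mitochondria changed by -0.13 and -0.39 (Slc25a4) and by -0.20 and -0.17 (Slc25a5), and the citrate carrier Slc25a1 by -0.18 and 0.09.

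By transport class, none of the 12 classes had a carrier that passed in normal cells, and in tumor cells the 23 tested metal carriers and the 21 tested mitochondrial carriers had 1 each. Class medians lay between -0.35 (4 nucleoside carriers) and 0.00 in normal cells and between -0.26 (8 lipid and choline carriers) and 0.41 (2 phosphate carriers) in tumor cells. In the amino acid families, 1 of 21 carriers passed in normal cells and 4 of 21 in tumor cells, all higher. These were the cationic amino acid carrier Slc7a1 in both and Slc6a9, Slc7a5 and its partner Slc3a2 in tumor cells. Of all probe sets tested, 0.164% passed in normal cells and 1.91% in tumor cells, in either direction. Of 22 tested genes that work with the carriers described here (carrier chaperones, the sodium pump, kinases of chloride cotransport, metallothioneins, iron handling genes, glycolytic genes and scaffolds), 0 passed on arginine withdrawal in either cell type.

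**Figure D3:**
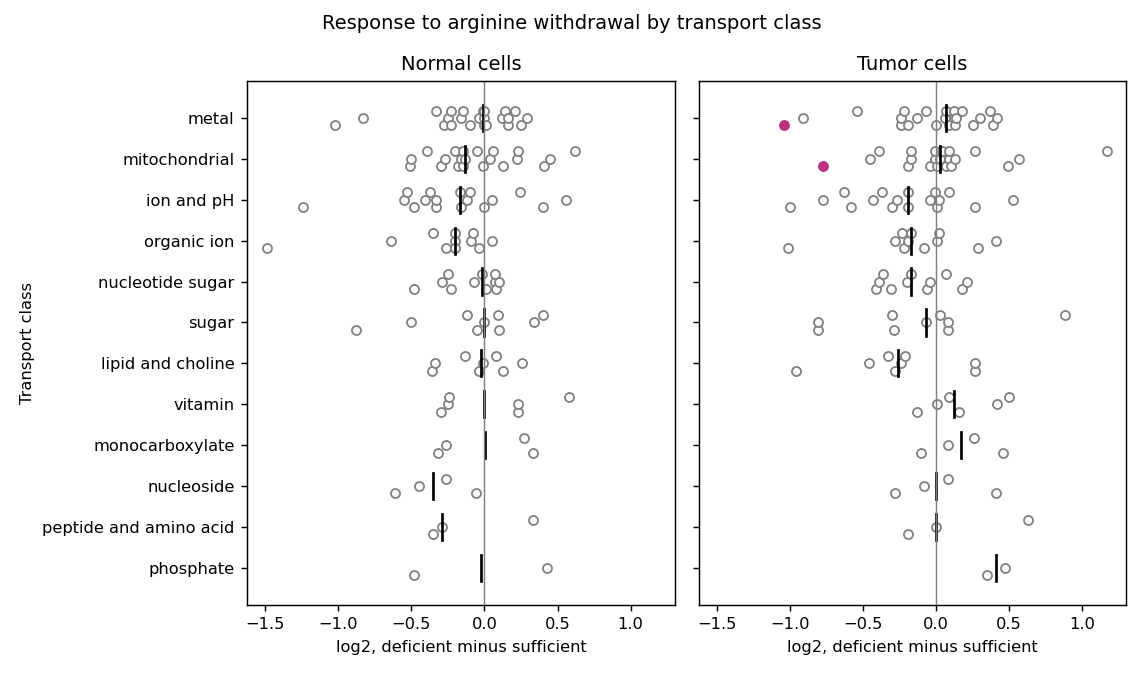
Log2 change on arginine withdrawal of every tested carrier by transport class, in normal cells (left) and tumor cells (right). Filled points passed, open points did not, and black bars are class medians; 2 filled points appear, both below 0 in tumor cells.

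The second comparison asked which carriers differed between the lines. With arginine, 31 carriers were higher and 19 lower in tumor cells, 50 of 119, and without arginine 35 were higher and 14 lower. Over all probe sets tested, 16.4% were higher and 18.1% lower with arginine, and 19.5% were higher and 21.2% lower without it. Both comparisons called 40 of the carriers, all in the same direction, and 60 carriers passed in neither. Among the 79 carriers at 150 or more on every array, 21 were higher and 11 lower with arginine. The same count was not made over all probe sets. Some of the 79 lie near the expression threshold, which was 146 to 191 across arrays, and others, such as Slc16a1 and Slc2a1, lie well above it. Leaving out single arrays gave 38 to 55 carriers with arginine and 40 to 53 without. Under the 2-fold rule 22 carriers differed with arginine and 29 without, beside 17.5% and 20.1% of all probe sets tested. The median difference was 0.17 with arginine and 0.10 without, beside 0.00 and 0.01 over all probe sets tested. Other genes that mark the lines moved with these differences. The summed signal of the 4 mesenchymal markers was 30608 to 48626 in normal and 11493 to 16395 in tumor arrays, mainly through Col1a1 (-5.47), and Krt7 was lower in tumor cells as well (-4.33). Krt8 differed by 0.56 with arginine, which did not pass (adjusted p = 0.219), and was higher in tumor cells by 1.05 without it (adjusted p = 0.0241). Their part in the carrier differences was not tested.

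**Figure D4:**
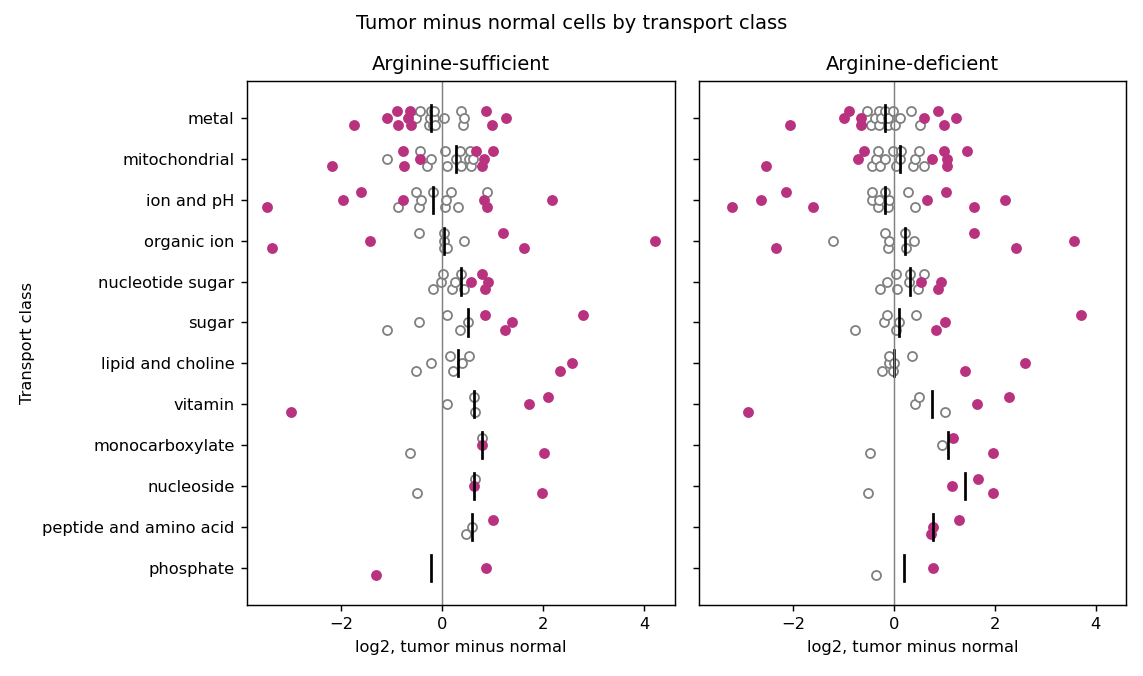
Log2 difference, tumor minus normal, of every tested carrier by transport class with arginine (left) and without it (right), with filled points for carriers that passed and black bars at class medians. Sugar, nucleotide sugar, monocarboxylate, nucleoside, and lipid and choline carriers that passed were all above 0 in both conditions, and ion, metal and mitochondrial carriers lay on both sides. Each carrier is shown by its probe set of highest mean signal.

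Carriers for sugar and for its end products were higher in tumor cells where they passed with the probe set that stood for each gene. Of 9 tested sugar carriers, 4 were higher and 0 lower with arginine, and of 4 monocarboxylate carriers, 2 were higher and 0 lower. Beside them, 16.4% of all probe sets tested were higher and 18.1% lower. With so few genes per class, these counts describe the list alone. The monocarboxylate carrier Slc16a6 went the other way, with -0.65 (adjusted p = 0.0784) with arginine from its main probe set. Its other probe set passed as lower, with -1.17 (adjusted p = 0.00901) with arginine and -0.87 (adjusted p = 0.0359) without. The lactate and pyruvate carrier Slc16a1 had signals of 558, 559 and 684 in normal and 2409, 2220 and 2641 in tumor cells, both with arginine. The tumor values lay far above all normal ones, and the difference was 2.02 ± 0.18 with arginine (adjusted p = 1.99e-06) and 1.96 ± 0.18 without. The pyruvate carrier of high affinity, Slc16a7, was higher by 0.78 ± 0.23 (adjusted p = 0.0184). The lactate exporter Slc16a3 gave 0.79 ± 0.46, which did not pass (adjusted p = 0.205). Slc16a3 was under the expression threshold on every normal array, and with low signals raised to it the difference was 0.15 (adjusted p = 0.656). Without any 1 of 3 arginine-sufficient arrays (normal experiments 1 and 2, tumor experiment 3), Slc16a7 no longer passed (0.66 to 0.74, adjusted p = 0.0526 to 0.0804).

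The glucose carrier Slc2a1 had signals of 501, 743 and 680 in normal and 1749, 1494 and 1703 in tumor cells with arginine, with no overlap. Its difference was 1.38 ± 0.20 with arginine (adjusted p = 0.000151) and 1.01 ± 0.20 without (adjusted p = 0.00131). The high-affinity glucose carrier Slc2a3 was higher by 1.25 ± 0.21 (adjusted p = 0.000555), and its other probe set gave 1.29. The glucose-6-phosphate carrier of the endoplasmic reticulum, Slc37a4, was higher by 0.84 ± 0.24 with arginine (adjusted p = 0.0149) and by 0.44 without (adjusted p = 0.158). It missed the threshold without the arginine-sufficient arrays of normal experiment 1 or tumor experiment 2 (0.75 and 0.80, adjusted p = 0.0574 and 0.0519). The fructose carrier Slc2a5 ranged from 22 to 243 in the normal arrays with arginine and from 458 to 765 in the tumor arrays. Its difference was 2.79 ± 0.65 (adjusted p = 0.00459) with arginine and 3.71 ± 0.65 (adjusted p = 0.000538), at least 6.95-fold, without. The difference with arginine was 1.75 (adjusted p = 0.00385) without the arginine-sufficient normal array of experiment 1 and 1.68 with low signals raised. Of 22 tested partner genes, 6 were higher and 5 lower in tumor cells with arginine, beside 16.4% and 18.1% of all probe sets tested. Hexokinases Hk1 and Hk2 were among the 6 (0.67 and 1.39), though Hk1 did not pass without arginine (0.49, adjusted p = 0.104). The other genes of glucose use, Pfkfb3 (0.53), Ldha (0.24) and Txnip (-0.42), did not pass with arginine. The carrier chaperones Bsg and Emb, which bring monocarboxylate carriers to the membrane, differed by -0.63 and -1.38, of which that of Emb passed.

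The vitamin carriers went both ways. The reduced folate carrier Slc19a1 had signals of 390, 645 and 515 on the arginine-sufficient normal arrays and of 112, 47 and 48 on the tumor arrays. It was lower by -3.00 ± 0.37 (adjusted p = 3.75e-05) in tumor cells, where every array lay under its own expression threshold, so the difference was at least 3.04-fold. The other folate carrier, Slc46a1, which works with protons, moved the other way: 28, 72 and 95 in normal and 166, 242 and 173 in tumor cells, a difference of 1.72 ± 0.49 (adjusted p = 0.0146). All 3 normal values were under the threshold, which leaves a bound of at least 1.05-fold. The difference was 0.12 (adjusted p = 0.638) when low signals were raised to the 46th percentile of their array, and it did not pass without the arginine-sufficient arrays of normal experiment 1 or tumor experiment 2 (1.20 and 1.55, adjusted p = 0.0636 and 0.0607). The ascorbate carrier Slc23a2 was 229, 240 and 297 in normal and 1044, 1176 and 1012 in tumor cells with arginine. Its difference of 2.09 ± 0.18 (adjusted p = 1.45e-06) had the smallest adjusted p of the list, and its other probe set gave 1.63 (adjusted p = 0.0069). The riboflavin carrier Slc52a2 differed by 0.10 ± 0.18 and did not pass.

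**Figure D5:**
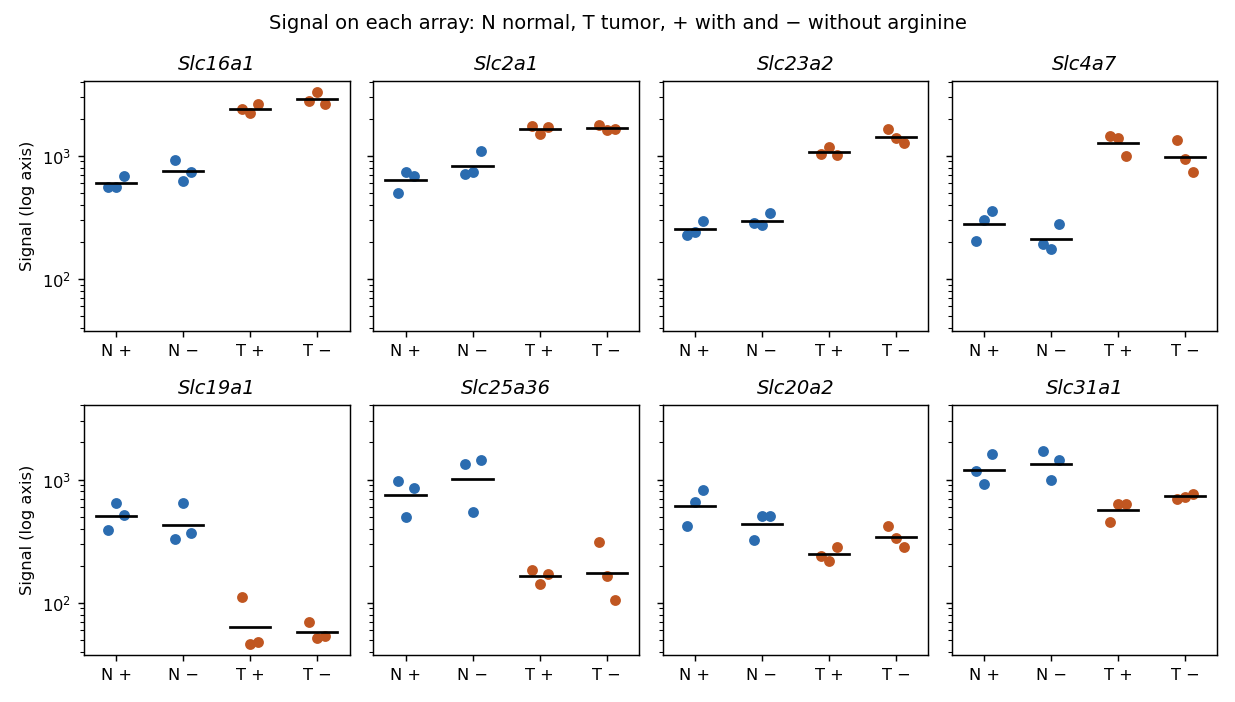
Signal on each array (points, log axis) with the mean of log2 signals (bars) of 8 carriers in normal (N) and tumor (T) cells with (+) and without (−) arginine. The lactate, glucose, ascorbate and bicarbonate carriers of the upper row were higher in all 6 tumor arrays than in any normal array, and those of the lower row were lower in tumor cells except that Slc20a2 overlapped without arginine.

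Nucleoside carriers, which salvage nucleosides and bring in their drug analogs, were higher in tumor cells where they passed (2 of 4 with arginine, 3 of 4 without). Of all probe sets tested, 16.4% were higher with arginine and 19.5% without, and counts among 4 carriers describe the list alone. Of these, Slc29a1 and Slc28a3 reached 150 in tumor arrays alone, so the rule that kept them favours a higher value in tumor cells. The equilibrative carrier Slc29a1 had signals of 88, 72 and 93 in normal and 303, 329 and 359 in tumor cells with arginine. The difference was 1.98 ± 0.28 (adjusted p = 0.000127), with a bound of at least 1.82-fold because the normal arrays were under the threshold. Slc29a2, of the same kind, was higher by 0.62 ± 0.20 (adjusted p = 0.0303) with arginine and by 1.15 without (adjusted p = 0.000627). Its other probe set did not pass, with 0.62 (adjusted p = 0.0664) with arginine and 0.20 (adjusted p = 0.55) without. With arginine the main probe set missed the threshold without any 1 of 5 arrays, all the arginine-sufficient ones but that of normal experiment 2 (0.47 to 0.65, adjusted p = 0.0576 to 0.132). The concentrative carrier Slc28a3 passed without arginine alone (1.67 ± 0.48, adjusted p = 0.0126, at least 1.16-fold), though not with low signals raised (0.26, adjusted p = 0.182) or without the arginine-deficient tumor array of experiment 2 (1.47, adjusted p = 0.0567). Without the arginine-deficient normal array of experiment 1 it was 1.09 (adjusted p = 0.0471). Its test of the difference between the conditions did not pass (adjusted p = 0.968).

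The ion and pH carriers, which set cell pH, calcium and chloride, went both ways. The potassium-dependent sodium-calcium exchanger Slc24a3 had signals of 1002, 597 and 832 in normal and 75, 58 and 82 in tumor cells with arginine. Its difference was -3.48 ± 0.38 (adjusted p = 1.53e-05), at least 4.76-fold. The other probe set of this gene gave -0.78 (adjusted p = 0.0601), so the size depends on the probe set. The sodium-calcium exchanger Slc8a1 was lower by -1.61 ± 0.41 (adjusted p = 0.00871), a bound of at least 1.28-fold, and with low signals raised it did not pass (-0.46, adjusted p = 0.054). The sodium-bicarbonate cotransporters moved in opposite directions. Slc4a7 was 203, 303 and 359 in normal and 1457, 1391 and 1000 in tumor cells with arginine, higher by 2.17 ± 0.28 (adjusted p = 5.63e-05), and its other probe set gave 1.54 (adjusted p = 0.00215). Slc4a4 was 134, 193 and 104 in normal and 34, 32 and 41 in tumor cells, lower by -1.96 ± 0.44 (adjusted p = 0.00378). These signals are at the lower end of the arrays, and with low signals raised the difference was -0.18 (adjusted p = 0.252), so that no bound on the fold is given. Among their partners, the scaffold Nherf1, which anchors ion carriers at the membrane, was lower in tumor cells (-2.70 with arginine), and the kinase Stk39 of chloride cotransport was higher (0.73). The chloride-bicarbonate exchanger Slc4a2 was higher by 0.82 ± 0.18 (adjusted p = 0.00280) and 1.04 without arginine. Slc12a2 was lower in tumor cells without arginine (-1.61 ± 0.30, adjusted p = 0.000973). With arginine the difference of -0.42 ± 0.30 did not pass.

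Of 23 tested metal carriers, 3 were higher and 7 lower in tumor cells with arginine, beside 16.4% and 18.1% of all probe sets tested. Ferroportin, Slc40a1, the only known exporter of iron, had signals of 399, 195 and 246 in normal and 105, 48 and 101 in tumor cells. It was lower by -1.75 ± 0.47 (adjusted p = 0.0111) with arginine and by -2.06 ± 0.47 (adjusted p = 0.00365) without. The bound was at least 1.6-fold with arginine and at least 1.85-fold without, and with low signals raised the difference no longer passed (-0.68, adjusted p = 0.085). Nor did it pass without the arginine-sufficient arrays of normal experiment 1 or tumor experiment 2 (-1.46 and -1.38, adjusted p = 0.0552 and 0.0551). Its other probe set gave -0.83 (adjusted p = 0.0423) with arginine and -1.33 (adjusted p = 0.00294) without. The copper importer Slc31a1 was lower by -1.09 ± 0.24 (adjusted p = 0.00315), with signals of 925 to 1610 in normal and 455 to 632 in tumor cells, and its other probe sets gave -0.93 and -0.36. The heme carrier Slc48a1 was lower by -0.89 ± 0.29 (adjusted p = 0.0301).

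The zinc importers split: Slc39a14, which also carries iron, was higher by 0.87 ± 0.19 (adjusted p = 0.00338) and Slc39a1 lower by -0.87 ± 0.20 (adjusted p = 0.00473). Slc39a10, lower on arginine withdrawal, did not differ between the lines past the threshold (-0.17 ± 0.21 with arginine). The zinc exporter Slc30a1 differed by -0.24 ± 0.36. Magnesium carriers split too, with Slc41a2 (1.27 ± 0.25, adjusted p = 0.00179) and Slc41a3 (0.98 ± 0.20, adjusted p = 0.00225) higher and Slc41a1 lower (-0.69 ± 0.19, adjusted p = 0.0146). The metallothionein Mt2A, which binds zinc and copper, and its activator Mtf1 were higher in tumor cells as well (1.40 and 0.63 with arginine), whereas Mt1, with mean signals of 106 in normal and 54.1 in tumor cells, did not pass (adjusted p = 0.0947) and was under the threshold on all 6 arginine-sufficient arrays. The divalent metal carrier Slc11a2 gave -0.26 (adjusted p = 0.314) with its main probe set and 0.81 (adjusted p = 0.00337) with the other. In the iron handling genes beside these carriers, Steap3 was higher (0.70) and 2 of 5 were lower with arginine, the latter Heph (at least 6.65-fold), which oxidises the exported iron, and Ireb2 (at least 1.9-fold), which controls iron genes at the level of RNA. All tumor signals of both were under the threshold. Of all probe sets tested, 18.1% were lower with arginine.

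Mitochondrial carriers, of which 21 were tested, passed upward in 4 and downward in 4 with arginine, beside 16.4% and 18.1% of all probe sets tested. Slc25a36, a pyrimidine nucleotide carrier like Slc25a33, had signals of 972, 498 and 847 in normal and 184, 142 and 171 in tumor cells, lower by -2.18 ± 0.41 (adjusted p = 0.00125). Slc25a13, the aspartate-glutamate carrier that is the close relative of Slc25a12 and serves the urea cycle in liver, was higher in tumor cells by 0.83 ± 0.23 (adjusted p = 0.0144) with arginine and by 1.45 ± 0.23 (adjusted p = 0.000298) without. Slc25a12 itself differed by 0.09 ± 0.17. The citrate carrier Slc25a1 was higher by 0.78 ± 0.27 (adjusted p = 0.0368) with arginine and by 1.06 without (adjusted p = 0.00648). The ADP/ATP carrier Slc25a4 was lower by -0.45 ± 0.16 (adjusted p = 0.0402) and by -0.72 without arginine (adjusted p = 0.00285). Both of these calls with arginine were lost without the arginine-sufficient arrays of normal experiment 2 or any of the 3 tumor experiments, and that of Slc25a4 also without the arginine-sufficient array of normal experiment 3 or the arginine-deficient one of tumor experiment 2 (0.51 to 0.84 with adjusted p = 0.0538 to 0.159 for Slc25a1, -0.39 to -0.47 with adjusted p = 0.0527 to 0.139 for Slc25a4). The ornithine carrier Slc25a15 differed by 0.54 ± 0.24 and did not pass (adjusted p = 0.104).

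Organic ion, lipid and phosphate carriers also went both ways. The vesicular glutamate carrier Slc17a6, known from neurons, was 44, 42 and 86 in normal and 1636, 1035 and 599 in tumor cells with arginine. The difference was 4.22 ± 0.70 (adjusted p = 0.000454), at least 5.54-fold because the normal signals were under the threshold. Slc22a17, the receptor of lipocalin 2, was lower by -3.38 ± 0.53 (adjusted p = 0.000277), at least 2.05-fold, and the lysosomal sialic acid exporter Slc17a5 by -1.43 ± 0.47 (adjusted p = 0.0313), at least 2.21-fold. The latter no longer passed without the arginine-sufficient arrays of normal experiments 1 or 3 or tumor experiments 2 or 3 (-1.17 to -1.51, adjusted p = 0.0577 to 0.123). Slc22a18 was higher by 1.61 ± 0.34 (adjusted p = 0.00231) and Slc27a3 by 2.33 ± 0.33 (adjusted p = 0.000142), the latter at least 2.54-fold.

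The choline carrier Slc44a1 had signals of 357, 139 and 219 in normal and 1109, 1407 and 1469 in tumor cells with arginine. Its difference was 2.57 ± 0.27 (adjusted p = 1.13e-05), but its other probe sets gave 0.05 (adjusted p = 0.883) and 0.41 (adjusted p = 0.173), so the gene as a whole has no settled difference. The phosphate importers moved apart. Slc20a1 was higher in tumor cells by 0.86 ± 0.23 (adjusted p = 0.00999), or by 0.57 (adjusted p = 0.041) without the arginine-sufficient normal array of experiment 1, and Slc20a2 was lower by -1.31 ± 0.27 (adjusted p = 0.00195) with arginine, with -1.27 from its other probe set. Without arginine Slc20a2 differed by -0.36 ± 0.27 (adjusted p = 0.307). Of 11 tested nucleotide sugar carriers of the Golgi and endoplasmic reticulum, 4 were higher and 0 lower with arginine. The shares of all probe sets tested were 16.4% and 18.1%. Among the 4 were Slc35b4 (0.84 ± 0.22, adjusted p = 0.00893) and Slc35b2 (0.79 ± 0.28, adjusted p = 0.0384), which brings in the sulfate donor. Slc35b2 lost its call without 6 of the arrays (0.65 to 0.83, adjusted p = 0.05 to 0.14), namely 3 arginine-sufficient normal ones, the arginine-sufficient tumor ones of experiments 2 and 3, and the arginine-deficient tumor one of experiment 2. In the lysosome, Slc66a1 was higher by 1.01 ± 0.20 (adjusted p = 0.00193), and the peptide and histidine carrier Slc15a4 by 0.58 ± 0.24, which passed without arginine alone (0.74 ± 0.24, adjusted p = 0.0226) and not there when the arginine-deficient arrays of experiments 1 or 3 in normal or 2 or 3 in tumor cells were left out (0.59 to 0.67, adjusted p = 0.072 to 0.103).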

How the data were processed

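One array per culture was measured in 12 cultures. The values are intensities: the authors derived a linear signal per probe set with Microarray Suite 5.0, and the deposited signals carry their scaling, to a trimmed mean of 500.1 to 500.2 on every array. Arrays hold no read depth, and precision is limited by their number. Here, a floor of 1 was applied before taking log2. Probe sets entered the test with a signal in the upper 54% of the array (above 146 to 191) on 3 or more arrays, leaving aside 57 controls. Symbols came from the array annotation, in which 311 probe sets carry several. All 127 carrier symbols were checked through their gene identifiers and 0 changed.

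Comparisons were made in R 4.3.3 by limma 3.58.1, using a mean for each of the 4 groups, an intensity trend, 8 residual degrees of freedom (4 with the experiment as a block) and Benjamini-Hochberg adjustment over 9745 probe sets, and was tested on simulated data. Pairs of cultures came from the study's pairwise experiments, the sample numbers and the array run records. Deviations from group means correlated at 0.43, 0.42 and 0.38 within the normal pairs and at 0.56, 0.04 and 0.42 within the tumor pairs. The carriers, classes, partner genes, motifs and the rule for named genes were chosen with earlier results of these data known, and family Slc66 was put in a class after the signals were seen. Named genes were those that passed on arginine withdrawal, the 6 highest and 6 lowest changes where fewer than 8 passed, the 10 largest differences in each direction between the lines among those with all 9 ratios in that direction, up to 3 per class by p, and 24 fixed names of which 20 were kept. Others (Slc2a3, Slc3a2, Slc6a9, Slc7a1, Slc7a5, Slc13a4, Slc25a13, Slc41a1, Slc41a2, Slc41a3, Slc48a1, Slc49a4 and the partner genes) were named after their values were seen. Where every array of the lower group was under its threshold, a bound was computed with that group at the higher of its signal and the threshold. Alternatives covered low-signal filters, scaling, moderation, blocks, a 2-fold rule, averaged probe sets per gene, 1 cell type alone and leaving out each array. Figures used matplotlib 3.10.9.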

Additional observations from a re-analysis of the deposited data

How the results depend on the processing

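The number of carriers that passed on arginine withdrawal in tumor cells (2) was 1 with no filter on low signals and with quantile normalization. It was also 1 with median centring and without the intensity trend. With a linear model without moderation it was 0, beside 29 of all 9745 probe sets. It was 8 with the experiment as a block, a paired fit that holds both of the 2. That block raised the number of all 9745 probe sets that passed from 186 to 1069 in tumor cells and from 16 to 235 in normal cells. Leaving out single arrays gave 0 to 2: 0 without the arginine-sufficient tumor arrays of experiments 1 or 2 or any arginine-deficient tumor array, and 1 when experiment 3 lacked its arginine-sufficient culture in tumor or in normal cells. In normal cells the count of 0 became 1 with the block (Slc39a10) and 1 under the rule of a 2-fold ratio in 6 of 9 comparisons (Slc22a15, lower, beside 1.13% of all probe sets). That rule gave 3 in tumor cells, 1 higher and 2 lower, beside 2.47%. Under it, 22 carriers differed between the lines with arginine and 29 without, against 50 and 49 and beside 17.5% and 20.1% of all probe sets, and leaving out single arrays gave 38 to 55 and 40 to 53. The block could not be fitted for the comparisons between the lines, because experiments lie within a cell type. The difference of response had 0 under every alternative run for it, including all single arrays left out. For 61 named carriers in 5 comparisons, 73 of 305 values passed. Of 6771 values under alternatives, 0 reversed a value that passed, 104 lost the threshold, 39 gained it, and 241 changed sign without passing in either fit. Detection calls were not used, so the expression threshold stands in for background, and a bound stands beside differences given for a group under it, where one exists.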
